A study of Sus scrofa with 30 samples.

Results

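The miR-34 and miR-449 family was followed in the plasma of Göttingen minipigs before and after total body irradiation (TBI). The members were taken as every row of the deposited table whose number right after ssc-miR- is that of miR-34 or miR-449. Of 411 ssc-miRNAs in the table, 2 met this rule, ssc-miR-34a and ssc-miR-34c, and 0 rows were of miR-449. The data came from 3 young male minipigs, which had formed the control arm of a countermeasure study and did not survive. They received dextrose under the skin on the day after irradiation and once more between 7d and 10d. Oral antibiotics were given when neutrophil counts were low. All 3 were given 2.2 Gy of cobalt-60 TBI, and no unirradiated animal was analysed here. The fold changes below compare each phase with the pooled pre-TBI libraries of all 3 animals, and differences from an animal's own pre-TBI libraries are given separately. Plasma was drawn 7 days (C7) and 1 day (C1) before irradiation, which together form the pre-TBI baseline. On the day of TBI it was drawn some hours after the exposure (0d). Sampling went on through the phases that the study calls Early (0d, 1d, 3d and 7d), Mid (10d with 14d), Late (17d alone) and LR (20d, late regression).

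p53 is the transcription factor that halts the cell cycle or triggers cell death after DNA damage. The MIR34A gene and the MIR34B/C gene cluster are among its best known direct targets, and their miRNAs silence genes of cell cycle entry and survival such as CDK6, MYC and BCL2. miR-34a is made in many tissues. miR-34b, miR-34c and the miR-449 group are most abundant in ciliated epithelium and testis, and all of them are closely alike in the seed, the stretch near the 5′ end that pairs with target mRNAs. In the RefSeq gene table of Sscrofa11.1, ssc-miR-34c is listed as MIR34C-1, which overlaps the spans of the genes BTG4 and C9H11orf88. The counts were made on another build, so no coordinates are given.

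The table held 30 libraries, and the 6 of minipig 3 from 3d onwards held 0 to 17 counts each over all rows and 0 counts of either member. These 6 were left out by a minimum of 1000 counts per library, which left 24 libraries with 24341 to 550316 counts. After 1d the samples therefore came from minipigs 1 and 2, while the pre-TBI baseline kept the 2 libraries of minipig 3. The libraries used held 24341 to 423325 counts before TBI (n = 6), 172339 to 524084 at Early (n = 10), 35762 to 103083 at Mid (n = 4), 29159 to 63441 at Late (n = 2) and 401408 to 550316 at LR (n = 2). Intervals taken from counts cover counting error only, because PCR copies were not separated. Fewer cells releasing a miRNA and less miRNA released per cell cannot be told apart in plasma.

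ssc-miR-34c was the more abundant member. It had 15 to 933 counts per library with a median of 211.5, while ssc-miR-34a had 7 to 139 with a median of 41.5. Among the 411 ssc-miRNAs of a library, ssc-miR-34c ranked between 70 and 277 by count and ssc-miR-34a between 134 and 354. ssc-miR-34c had more counts than ssc-miR-34a in 22 of 24 libraries, and the counts were equal in the other 2, both at 17d. One read spans a whole mature miRNA, so the pair needed no length scaling, but how well each sequence takes the adapters was not measured.

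Before TBI, ssc-miR-34c already differed widely between samplings. Levels are given as log2 CPM, where CPM is the counts of a row scaled to a common library total, here after TMM scaling and with a prior count of 2. At C7 it was 9.54 in minipig 1, 10.74 in minipig 2 and 8.82 in minipig 3, and at C1 it was 10.07, 9.57 and 8.77. Minipig 3 was the lowest at both time points, and the order of the other two changed. ssc-miR-34a was 8.65, 7.10 and 7.47 at C7 and 7.81, 7.58 and 7.36 at C1 in minipigs 1, 2 and 3. Its highest value rested on only 8 counts, from the library with the fewest counts of all those used. Between C1 and C7 neither member passed the test. ssc-miR-34c had a log2 fold change of -0.38 (standard error 0.57) and ssc-miR-34a one of -0.08 (standard error 0.49), both with an adjusted p = 0.997 in edgeR's quasi-likelihood test. Between these time points 0.73% of all rows were called at p under 0.05 without adjustment and 0% with it.

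ssc-miR-34c had its highest mean level 1 day after TBI. At 0d its log2 CPM was 9.46, 10.69 and 10.20 in minipigs 1, 2 and 3. At 1d it was 10.73, 11.05 and 10.56, and each of these 3 libraries was above both pre-TBI libraries of the same animal, by 0.92, 0.89 and 1.77 from their mean. A share of 9.98% of all rows met this condition at 1d. As CPM without TMM scaling, the 1d values were 1684, 2621 and 1348, against 484 to 1741 over the 6 pre-TBI libraries, so the 2 groups overlapped.

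The 1d difference of ssc-miR-34c did not pass the adjusted threshold. Its log2 fold change against pre-TBI was 1.05 (standard error 0.47, unadjusted p = 0.0366, adjusted p = 0.350, edgeR's quasi-likelihood test), and it ranked 43 of 411 rows by p. At 1d, 12.2% of all rows had an unadjusted p under 0.05, with 3.41% higher and 8.76% lower, and 0% had an adjusted p under 0.05. The log2 fold change stayed between 0.85 and 1.25 over the 16 other settings that changed the fit, with 12 of them below 0.05 before adjustment and 0 after it. At 0d the log2 fold change of ssc-miR-34c was 0.45 (standard error 0.47, adjusted p = 0.631), beside 8.52% of all rows called without adjustment and 0% with it. Minipig 1 was below its own pre-TBI libraries at 0d and minipig 3 above them.

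**Figure D1:**
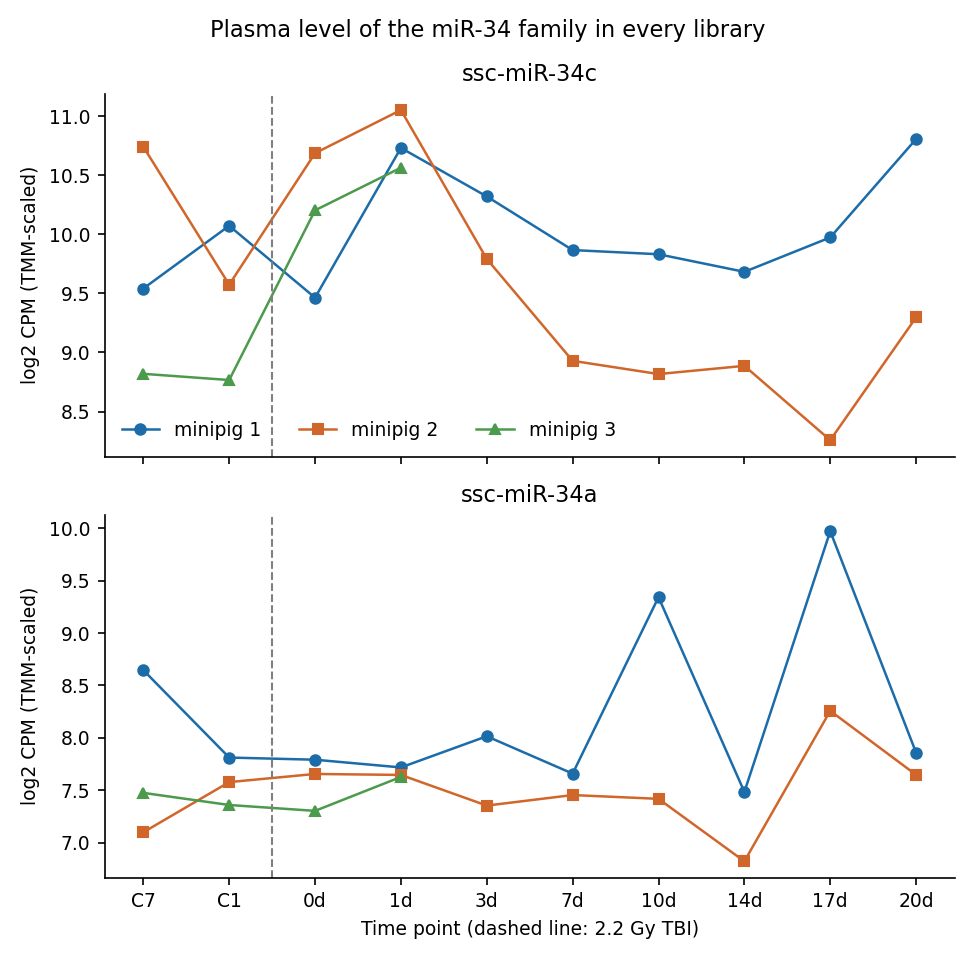
Level of ssc-miR-34c (top) and ssc-miR-34a (bottom) as log2 CPM (TMM-scaled, y axis) at each time point (x axis, not to time scale) in the 24 libraries, with 1 line per minipig and a dashed line at TBI. ssc-miR-34c stands above each animal's own pre-TBI libraries at 1d, and ssc-miR-34a does so at 17d.

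After 1d, ssc-miR-34c was lower at each step to 7d in both remaining animals. It was 10.32 and 9.79 at 3d and 9.87 and 8.93 at 7d in minipigs 1 and 2. By log2 CPM, minipig 1 returned to the range of its own pre-TBI libraries by 7d, while minipig 2 was below its own. As CPM without TMM scaling, minipig 1 at 7d had 980, still above its pre-TBI values of 616 and 916. The 10 Early libraries had a mean log2 CPM of 10.16 ± 0.65 (SD) against 9.59 ± 0.75 (SD, n = 6) before TBI. The log2 fold change at Early was 0.53 (standard error 0.36, adjusted p = 0.382, edgeR's quasi-likelihood test). At Early 18.7% of all rows were called without adjustment and 0% with it.

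From 10d to 17d the 2 animals stood apart by log2 CPM. Minipig 1 had ssc-miR-34c at 9.83, 9.68 and 9.97 at 10d, 14d and 17d, all within its own pre-TBI range of 9.54 to 10.07. Minipig 2 had 8.82, 8.89 and 8.26, all below its own pre-TBI libraries. The log2 fold changes were -0.39 at Mid (standard error 0.46, adjusted p = 0.970) and -0.47 at Late (standard error 0.62, adjusted p = 0.659). Without minipig 2 they turned to 0.41 and 0.31, the latter from 1 Late library. Without minipig 3, which is in the baseline but not in these phases, they were -0.67 and -0.92. At 20d minipig 1 reached 10.81, above its 1d level, while minipig 2 stood at 9.30, below its own pre-TBI libraries. As CPM without TMM scaling the order in minipig 1 was the other way, with 1485 at 20d and 1684 at 1d. The log2 fold change at LR was 0.49 (standard error 0.55, adjusted p = 0.711). It was 1.28 without minipig 2 and -0.37 without minipig 1, each time with 1 LR library. Without minipig 3, which has no LR library, it was 0.07.

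Ordered by its mean, ssc-miR-34c had a log2 CPM of 10.78 ± 0.25 (SD, n = 3) at 1d, 10.12 ± 0.62 (SD, n = 3) at 0d, 10.06 ± 0.37 (SD, n = 2) at 3d and 10.05 ± 1.07 (SD, n = 2) at 20d. Below these stood C7 with 9.70 ± 0.97 (SD, n = 3), C1 with 9.47 ± 0.66 (SD, n = 3) and 7d with 9.40 ± 0.66 (SD, n = 2). The lowest were 10d with 9.32 ± 0.72 (SD, n = 2), 14d with 9.28 ± 0.56 (SD, n = 2) and 17d with 9.12 ± 1.21 (SD, n = 2). The gap from 1d to 0d was larger than the SD of either time point. Every other pair of neighbours in this order differed by less than the larger of their SDs.

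By log2 CPM, ssc-miR-34a stayed within the pooled pre-TBI span of the 3 animals in the first week. Its log2 CPM at 0d was 7.79, 7.66 and 7.30 in minipigs 1, 2 and 3, and at 1d it was 7.72, 7.65 and 7.63. At 3d it was 8.02 and 7.35, and at 7d 7.66 and 7.45, in minipigs 1 and 2. The 10 Early libraries thus spanned 7.30 to 8.02, inside the pooled pre-TBI span of 7.10 to 8.65, whose top came from 8 counts. As CPM without TMM scaling, the Early libraries spanned 127.8 to 259.5, against 132.2 to 328.7 before TBI. Their mean was 7.62 ± 0.21 (SD) against 7.66 ± 0.54 (SD, n = 6) before TBI. Within animals the directions were mixed. By log2 CPM, 1 of 3 libraries at 0d was above both pre-TBI libraries of the same animal and 2 were below both. At 1d 2 of 3 were above and 1 below, at 3d 0 of 2 were above or below, and at 7d 1 of 2 was below. Some of these directions changed as CPM without TMM scaling. At 1d minipig 3 had 170.2, below its pre-TBI values of 234.9 and 177.2, and minipig 1 had 201.9, between its own. Minipig 2 at 0d (185.9) and minipig 1 at 7d (205.7) were also between their own. Minipig 2 at 7d (208.9) was above its own. For Early the log2 fold change came to 0.02 (standard error 0.30, adjusted p = 0.980), for 0d to -0.03 (standard error 0.39, adjusted p = 0.977) and for 1d to 0.05 (standard error 0.38, adjusted p = 0.968). All 3 signs turned under some scaling or baseline. An interval of 2 standard errors at Early ran from -0.58 to 0.62, so changes inside it were not excluded by this fit. The interval does not allow for repeated draws of the same animals.

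At Late, ssc-miR-34a was the member that rose. At 17d it had 21 counts in minipig 1 and 19 in minipig 2, with a log2 CPM of 9.97 and 8.26. Both libraries were above both pre-TBI libraries of the same animal, by 1.74 and 0.92 from their mean, while minipig 2 at 17d was still below minipig 1 at C7. A share of 15.1% of all rows met the same condition at 17d. As CPM without TMM scaling the level was 720 in minipig 1 (exact binomial 95% interval 446 to 1101), against 329 (141.9 to 647) at C7 and 186 (121.5 to 273) at C1. In minipig 2 it was 299 (180 to 468), against 132 (89.2 to 189) at C7 and 204.1 (153 to 267) at C1. The interval of minipig 1 at 17d overlapped that at C7 and not that at C1, and the interval of minipig 2 at 17d overlapped those of both its pre-TBI libraries.

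The log2 fold change of ssc-miR-34a at Late was 1.68 (standard error 0.49, adjusted p = 0.0482, edgeR's quasi-likelihood test), a 3.22-fold higher level, and it ranked 18 of 411 rows by p. At Late, 4.38% of all rows passed the adjusted threshold, 3.89% higher and 0.487% lower, and 22.6% had an unadjusted p under 0.05. The call stood just inside the threshold. Of 16 other settings that changed the fit, 5 kept it, with adjusted p from 0.0120 to 0.580 over the 16. Of the 13 among them that kept both Late libraries, 4 did. Without minipig 3, which has no Late library but 2 in the baseline, the log2 fold change was 1.44 (adjusted p = 0.265). Leaving out minipig 1 or minipig 2 left 1 Late library, whose spread was then taken from the other groups, and gave 0.84 (adjusted p = 0.319) and 1.97 (adjusted p = 0.0330). A minimum of 50000 counts per library also left 1 Late library, that of minipig 2, and took out minipig 1 at C7 and minipig 2 at 10d as well. It gave 0.81 (adjusted p = 0.580).

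Other measures moved with ssc-miR-34a at 17d. The 2 Late libraries were shallow, with 29159 and 63441 counts. A list of miRNAs typical of brain and retina (miR-9, miR-96, miR-124, miR-128, miR-182, miR-183 and miR-204) had 9 rows, which summed to a CPM of 146610 and 219874 at Late, against 11020 to 101187 over the 6 pre-TBI libraries. At Late, 6 of the 9 passed the adjusted threshold and were higher, beside 3.89% of all rows. They were ssc-miR-182 (log2 fold change 5.44), ssc-miR-204 (3.91), ssc-miR-9-1 and ssc-miR-9-2 (3.72 each, from identical counts), ssc-miR-9 (2.73) and ssc-miR-96-5p (1.97). ssc-miR-9, ssc-miR-9-1 and ssc-miR-9-2 are all rows of miR-9, so it enters the sum and the 6 of 9 more than once. ssc-miR-183 (1.55), ssc-miR-124a (1.45) and ssc-miR-128 (-0.42) did not pass, and 0 of the 9 stood at 0 in a Late library. The brain and retina list was chosen with earlier results of these data known, so its count beside that of all rows is a description only. The part of depth and of these miRNAs in the ssc-miR-34a value was not tested.

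At Mid, ssc-miR-34a was high in 1 library. It had 9.34 at 10d in minipig 1, from 27 counts, against 7.42 in minipig 2, from 7 counts. At 14d both animals were below their own pre-TBI libraries, with 7.48 and 6.82, as were 17.5% of all rows. The log2 fold change at Mid was 0.43 (standard error 0.40, adjusted p = 0.970), and it was -0.39 without minipig 1. At Mid 5.35% of all rows were called without adjustment and 0% with it. At LR the level was 7.86 and 7.65 in minipigs 1 and 2, with a log2 fold change of 0.14 (standard error 0.46, adjusted p = 0.904). There 5.60% of all rows were called without adjustment and 0% with it. By mean level, ssc-miR-34a was highest at 17d (9.12 ± 1.21, SD, n = 2) and 10d (8.38 ± 1.36, SD, n = 2) and lowest at 14d (7.15 ± 0.47, SD, n = 2). The other 7 time points had means between 7.56 and 7.75. No neighbours in this order differed by more than the larger of their SDs.

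**Figure D2:**
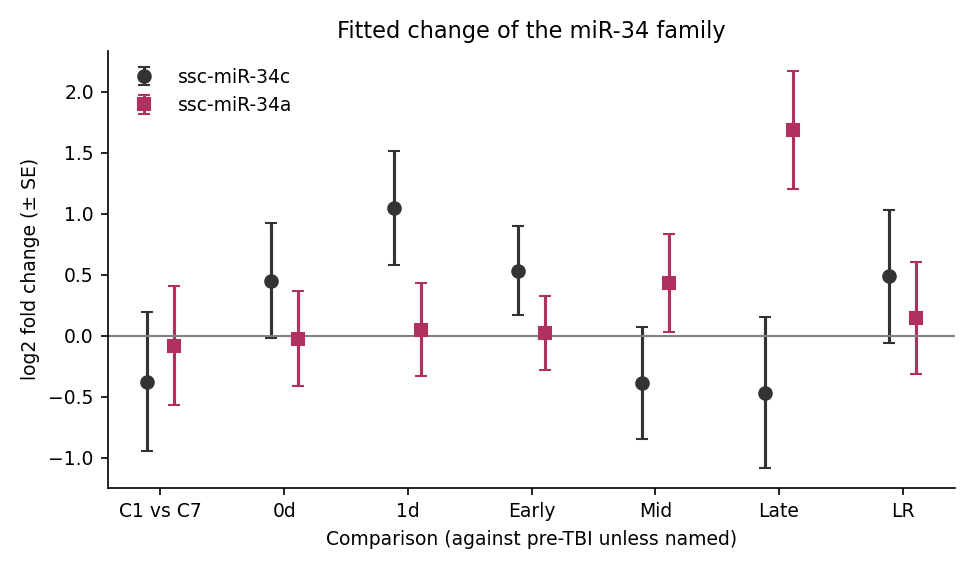
Log2 fold change (y axis) of ssc-miR-34c (circles) and ssc-miR-34a (squares) in each comparison (x axis), with bars of 1 standard error from edgeR. ssc-miR-34c is highest at 1d with 1.05, and ssc-miR-34a at Late with 1.68.

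The balance between the members was followed within each library, where no scaling between libraries is needed. Of the counts of both members together, ssc-miR-34c made up 65.2% to 92.9% in the 6 pre-TBI libraries, with a median of 76.8%. It was 74.1% to 91.7% at Early (median 86.8%), 58.5% to 82.6% at Mid (median 77.3%) and 76.3% and 88.8% at LR. At 1d the share was 89.3%, 91.7% and 88.8% in minipigs 1, 2 and 3, the narrowest range of the time points with 3 libraries. In minipig 2 the C7 library was higher still, at 92.9%.

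At 17d both animals had equal counts of the members, 21 of each in minipig 1 and 19 of each in minipig 2. The share of ssc-miR-34c was 50%, with an exact binomial 95% interval of 34.2% to 65.8% in minipig 1 and 33.4% to 66.6% in minipig 2. The lowest share among the other 22 libraries was 58.5%, in minipig 1 at 10d. Expressed as the log2 ratio of ssc-miR-34c to ssc-miR-34a counts with 0.5 added to each, the 2 Late libraries stood at 0.00 against 1.95 ± 0.99 (SD, n = 6) before TBI.

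No phase passed the test of this ratio against pre-TBI. Time labels were moved within each minipig. In two-sided exact permutation tests the mean log2 ratio was 0.63 higher at Early (p = 0.141), differed by -0.41 at Mid (p = 0.556), by -1.95 at Late (p = 0.222) and was 0.38 higher at LR (p = 0.667). Adjusted over the 4 phases, p was 0.444 at Early and Late and 0.667 at Mid and LR in the permutation tests. With 9 possible arrangements for Late and for LR, neither exact permutation test could go below p = 0.111. The ratio also moved with depth. Over the 24 libraries, which come from 3 animals and share their total with both counts, Spearman's rho of the ratio with the total count was 0.56. It was -0.35 for the log2 CPM of ssc-miR-34a and 0.31 for that of ssc-miR-34c. The part of depth in the ratio was not tested.

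**Figure D3:**
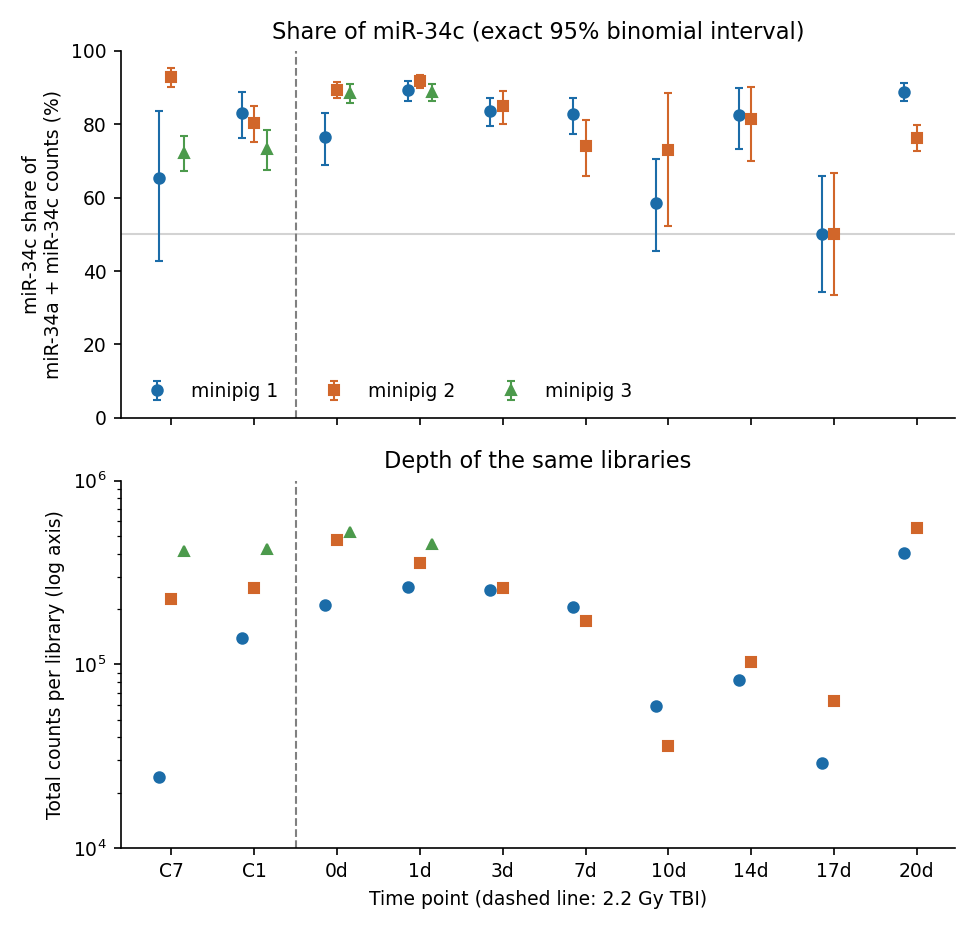
Top, the share of ssc-miR-34c among the counts of both members (y axis, percent) at each time point (x axis) in the 24 libraries, with exact 95% binomial intervals that cover counting error only. Bottom, the total counts of the same libraries on a log axis. Both 17d libraries sit at 50% and have 29159 and 63441 counts.

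Across libraries the 2 members ranked together only weakly. Over the 24 libraries Spearman's rho between their log2 CPM was 0.18. It was -0.04 after each minipig's mean was taken off and -0.15 with library size alone as the scaling. By its likeness to ssc-miR-34a, ssc-miR-34c ranked 137 among the other rows. The rows most like ssc-miR-34c were ssc-miR-708-5p (rho 0.83, and 0.83 with the minipig means taken off), ssc-miR-324 (0.76 and 0.80), ssc-miR-7 (0.74 and 0.76), ssc-miR-1306-3p (0.72 and 0.76) and ssc-miR-320 (0.70 and 0.65). Of these 5, 4 were among the 5 most like rows with the minipig means taken off, and 4 with library size alone. The rows most like ssc-miR-34a were ssc-miR-9 (rho 0.76, and 0.72 with the minipig means taken off), ssc-miR-9-1 and ssc-miR-9-2 (0.74 and 0.69 each), ssc-miR-130a (0.70 and 0.79) and ssc-miR-378 (0.68 and 0.71). Here 2 of the 5 remained with the minipig means taken off and 1 with library size alone, where rho with ssc-miR-9 was 0.60. These correlations describe 24 libraries of 3 animals that share scaling and depth, and they carry no test.

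The other miRNAs that p53 is known to raise, by transcription or by processing, were taken by number, with any letter, copy or arm. This gave 17 rows, and whether p53 raises each single row among them was not asked. They were of miR-15, miR-16, miR-22, miR-107, miR-143, miR-145, miR-149, miR-192, miR-194, miR-215 and miR-429. In none of the 4 phases did a row of this list pass the adjusted threshold in edgeR's quasi-likelihood test. Of all rows, 0% passed it at Early, Mid and LR and 4.38% at Late, so the list did not stand apart in this. At an unadjusted p under 0.05, 2 were higher and 0 lower at Early, where 5.11% of all rows were higher and 13.6% lower. At Mid 2 were higher and 2 lower, beside 2.19% and 3.16% of all rows. At Late 2 were higher and 0 lower, beside 15.6% and 7.06%, and at LR 3 were higher and 0 lower, beside 3.65% and 1.95%. The median log2 fold change of the list was 0.11 (Early), 0.09 (Mid), 0.02 (Late) and 0.08 (LR), against 0.02, 0.05, 0.08 and -0.01 over all 411 rows. The counts were small and moved by more than 1.5 times in many of the other settings.

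The row of the list with the smallest p changed from phase to phase. At Early it was ssc-miR-149 (log2 fold change 0.59, standard error 0.24, adjusted p = 0.190). At Mid it was ssc-miR-215 (1.07, standard error 0.37, adjusted p = 0.808), which is processed from a cluster with miR-194 and is abundant in gut and kidney. At LR it was ssc-miR-192 (1.48, standard error 0.45, adjusted p = 0.337), which shares its seed with miR-215. ssc-miR-215 stood beside it at LR with 1.41 (standard error 0.44, adjusted p = 0.337). At Late it was ssc-miR-15b (1.19, standard error 0.45, adjusted p = 0.134), of the miR-15 and miR-16 family that restrains cyclins and BCL2. The lowest value of the list was that of ssc-miR-16 at Mid, -2.23 (standard error 0.80, adjusted p = 0.808), a miRNA abundant in red blood cells. ssc-miR-451, made by red blood cells, was lower by a log2 fold change of -2.42 in the same comparison (standard error 0.89, adjusted p = 0.808). ssc-miR-215 at LR, ssc-miR-16 and ssc-miR-451 were chosen after their values were seen.

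At 1d, when the mean of ssc-miR-34c was highest, 2 of the 17 rows were higher and 0 lower at an unadjusted p under 0.05, beside 3.41% and 8.76% of all rows. They were ssc-miR-215 (log2 fold change 0.78, standard error 0.29, adjusted p = 0.232) and ssc-miR-192 (0.66, standard error 0.28, adjusted p = 0.350). At 1d 0 rows of the list had an adjusted p under 0.05, as had 0% of all rows. ssc-miR-192 was named after its value was seen. The median log2 fold change of the list at 1d was 0.10, against -0.04 over all rows. At 0d 1 row was higher and 0 lower, beside 6.33% and 2.19% of all rows, and it was ssc-miR-149 (log2 fold change 0.93, standard error 0.31, adjusted p = 0.468).

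**Figure D4:**
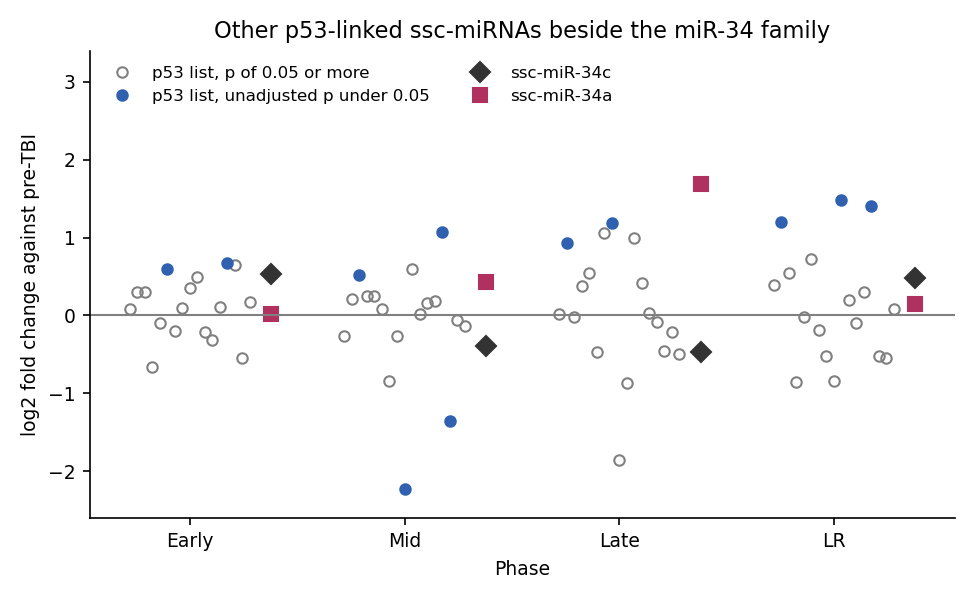
Log2 fold change against pre-TBI (y axis) in each phase (x axis) for the 17 rows of the p53 list (circles, filled where the unadjusted p is under 0.05) and for ssc-miR-34c (diamonds) and ssc-miR-34a (squares). ssc-miR-34a at Late, with 1.68, lies above every row of the list in that phase.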

How the data were processed

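Small RNA of plasma was sequenced from 3 minipigs at 10 time points. Per the methods and labels, the authors built TruSeq small RNA libraries from plasma, demultiplexed NextSeq reads with bcl2fastq, trimmed them with Cutadapt, aligned them with Bowtie2 (version 2.2.3.0 in the submitters' processing notes) to ssc5, a pig assembly, and used miRDeep2 with miRBase entries to quantify ssc-miRNAs. The deposited values are raw counts per ssc-miRNA and library, without normalization. The authors describe a filter on low counts before their own fits. Whether it had been applied to the deposited 411 rows is not given in the sources used here. Mature sequences were not analysed here.

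Libraries with at least 1000 counts were fitted with edgeR 4.0.16 (R 4.3.3): TMM, CPM above 0.5 in at least 3 libraries (all 411 rows passed), quasi-likelihood test, 5 groups by phase, 9 groups for 0d and 1d and 10 for C1 against C7, with no term for the minipig. Adjusted p is Benjamini-Hochberg over the 411 rows. Log2 fold changes use a prior count of 0.125, and a standard error is the log2 fold change over the square root of F. The fits as reported and the SDs by phase took every library as a replicate, not every animal. The 6 pre-TBI, 10 Early and 4 Mid libraries held repeated draws of the same animals. Standard errors and p-values of these fits, and the SDs, do not allow for this. The libraries of 1 animal are paired by the design. Deviations from phase means correlated by 0.169 over 78 pairs of the same minipig and by -0.102 over 130 pairs of different minipigs. No library was a duplicate of another in its phase, since chi-square divided by its degrees of freedom was at least 21.8 in 68 pairs within phases. Pairs across phases were not checked.

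Members, the p53 list (numbers 15, 16, 22, 107, 141, 143, 145, 149, 192, 194, 200, 215, 429, 605 and 1246, of which 11 were in the table) and the marker lists were chosen with earlier results of these data known. The text names the members, the 5 rows most like each, every list row past the adjusted threshold in a phase or else the one of smallest p, and exceptions where stated. Python 3.11.15 with scipy 1.17.1, pandas 2.3.3, numpy 2.4.6 and matplotlib 3.10.9 gave the permutation tests, correlations and figures. DESeq2 1.42.0 was 1 of the alternatives.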

Additional observations from a re-analysis of the deposited data

How the results depend on the processing

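The values rest on 2 or 3 animals and on as few as 7 counts of ssc-miR-34a per library. Of the alternatives, 2 were chosen after seeing the data, the fits without minipig 1 at C7 and with a minimum of 50000 counts per library. Values are log2 fold changes unless named otherwise, and where a call or direction changed, the cause was not tested.

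Both other filters kept all 411 rows and so left every fit as reported. ssc-miR-34a at Late was higher in the 16 alternatives that changed the fit. It no longer passed the adjusted threshold by library size alone (1.29), with DESeq2 size factors (1.56), with TMM against the deepest library (1.47) or without the most abundant row (1.47), with only the groups compared (1.54), with counts thinned (1.54), with C7 (1.41) or C1 (1.72) as the only baseline, or with the minimum of 50000 counts (0.81). Leaving out 1 minipig gave 0.84 to 1.97. With the minipig as a replicate block it was 1.47 (adjusted p = 0.0476) and kept its call.

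ssc-miR-34a at Early turned to -0.0703 by library size alone, -0.0599 against the deepest library, -0.0673 without the most abundant row, -0.0277 with the replicate block, -0.26 thinned and -0.12 against C7 alone. Leaving out a minipig gave -0.10 to 0.05, and leaving out minipig 1 at C7 gave 0.0608. At 1d it turned to -0.000978 without the most abundant row, -0.29 thinned and -0.0775 against C7 alone, with -0.15 to 0.23 over minipigs left out. At 0d it was 0.00937 by the likelihood ratio test and 0.00853 against C1 alone, and at LR -0.000198 against C7 alone. C1 against C7 gave 0.17 with the minimum of 50000 counts and 0.18 without minipig 1 at C7. Over minipigs left out, ssc-miR-34a spanned -0.39 to 0.90 at Mid, -0.0562 to 0.27 at LR and -0.47 to 0.10 for C1 against C7. ssc-miR-34c spanned 0.18 (without minipig 3) to 0.84 (without minipig 2) at Early, -0.89 to 0.41 at Mid, -1.49 to 0.31 at Late, -0.37 to 1.28 at LR, -0.0223 to 0.67 at 0d and -0.83 to 0.32 for C1 against C7. Without minipig 1 at C7, ssc-miR-34c was 0.23 at 0d, -0.71 at Late and 0.29 at LR, and ssc-miR-34a was -0.10 at 0d and 0.12 at 1d. The log2 ratio spanned 0.26 to 1.05 at Early, -0.67 to -0.14 at Mid and -0.45 to 1.49 at LR over minipigs left out, and was 0.41, -0.62 and 0.17 without minipig 1 at C7. Without minipig 1 or 2, Late and LR rest on 1 library.

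Rows of the p53 list called without adjustment at Early numbered 0 by library size and against C1 alone, 5 with only the groups compared, 1 against C7 alone and 1 without minipig 1 at C7. At Mid they numbered 0 against C1 alone. At Late they numbered 0 by library size, with only the groups compared and thinned, and 1 against the deepest library, without the most abundant row, with the block and against C7 alone. At LR they numbered 5 with DESeq2's Wald test and with the block. Over minipigs left out they numbered 0 to 3 at Early, 2 at Mid and 0 to 5 at Late. Library size alone moved the median of all rows by -0.28 at Late and -0.32 at 0d.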

Other observations

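Marker miRNAs of other cell types were counted in the same fit by phase, and outside the brain and retina list 0 rows passed the adjusted threshold (edgeR's quasi-likelihood test). Of all rows, 0% passed it at Early, Mid and LR and 4.38% at Late. Counts are at an unadjusted p under 0.05, where 5.11% of all rows were higher and 13.6% lower at Early, 2.19% and 3.16% at Mid, 15.6% and 7.06% at Late and 3.65% and 1.95% at LR. The erythroid list (miR-144, miR-451 and miR-486, 3 rows) had 1 lower row at Mid and 1 at Late, ssc-miR-451 both times. Its row of smallest p was ssc-miR-451 at Early too and ssc-miR-486 at LR. The list set up for myeloid cells held miR-142 alone (2 rows, with miR-223 not analysed here), so it does not mark myeloid cells apart from other blood cells. It had 1 lower row at Mid, ssc-miR-142-5p. That row also had the smallest p at Late and LR, and ssc-miR-142-3p at Early. The liver list was ssc-miR-122 alone, which was lower in 2 phases, with a log2 fold change of -0.79 ± 0.30 (standard error) at Early and -1.39 ± 0.52 at LR and adjusted p of 0.158 and 0.535. The muscle list (6 rows) had 1 higher and 2 lower rows at Early and 1 lower row at LR. Its row of smallest p was ssc-miR-208b at Early (-1.99 ± 0.59, adjusted p = 0.0766), ssc-miR-133a-3p at Mid and ssc-miR-1 at Late and LR. The epithelial list (2 rows) had 1 lower row at Late, ssc-miR-205, which had its smallest p in all 4 phases. The lymphocyte list (miR-150 and miR-342, 2 rows) had 0 called rows in the 4 phases, with the smallest p for ssc-miR-150 at Late and for ssc-miR-342 in the others. The brain and retina list had 1 lower row at Early and 1 higher row at LR, ssc-miR-182 both times, and 0 called rows at Mid, where ssc-miR-204 had the smallest p.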
